A study of Rattus norvegicus with 6 samples.

Results

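T and natural killer (NK) cell genes were measured in rat L5 dorsal root ganglia (DRG), the ganglia that hold the cell bodies of sensory neurons, after spinal nerve transection (SNT). The set was a list of 55 gene symbols for the T-cell receptor and its signalling, co-stimulation, cytotoxic granules, NK receptors, lymphocyte transcription factors and cytokine receptors. A gene counted as measured where a transcript cluster of the array, the unit that sums the probesets of 1 gene, was annotated to that symbol alone. This held for 42 of the 55, out of 13215 genes with such a cluster and 19418 clusters in all. No cluster was annotated to Cd3e, Cd3g, Lck, Sh2d1a, Themis, Sla2, Icos, Tcf7 or Il2rb, and Klrd1, Klrb1a, Klrc1 and Eomes were found only on clusters shared with other symbols. These 13 genes were not analysed here.

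All tissue came from male Wistar rats. The SNT group carried a cut L5 spinal nerve and was collected 7 days after surgery, whereas the naive group had no operation, so that the nerve cut and the surgery around it cannot be told apart. Each group had 3 arrays, and RNA from the L5 ganglia of 4 animals was pooled for each. The ganglion is a mixture of neurons, satellite glia, Schwann cells, vessels and immune cells, and in such bulk RNA more cells of a type and more RNA per cell cannot be told apart.

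T cells recognise peptides held by MHC molecules through a receptor whose signal runs through the CD3 and zeta chains. CD4 binds MHC class II and CD8 binds MHC class I beside it. NK cells carry no such receptor and weigh activating against inhibitory surface receptors instead. Both NK cells and CD8 T cells kill by releasing perforin, which opens membranes, and granzymes, a family of serine proteases. Infiltration of the injured nerve and its ganglion by T cells, alongside macrophages, is well known from rodent nerve injury.

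Injury markers separated the groups on the 6 arrays: Atf3 was 7.69 to 7.74 in naive and 11.36 to 11.63 in SNT, and Sprr1a was 4.39 to 4.67 and 10.15 to 10.73, on the log2 scale of the deposited values. The tissue label was matched by the neuronal genes Tubb3, Uchl1, Prph and Snap25, whose naive values lay between 12.18 and 12.83. Of 6 sensory neuron markers 3 fell after SNT (Isl1, Pou4f1 and Snap25) and 0 rose, with a median of -0.45, and of 6 markers of satellite glia and Schwann cells 2 rose (Sox10 and Erbb3) and 2 fell (Fabp7 and S100b). Without naive replicate 1 or 3 only 1 of the glial markers fell. The part of these shifts in the changes of T and NK cell genes was not tested. SNT replicate 1 correlated with the other SNT arrays at r = 0.982 over all clusters, whereas SNT replicates 2 and 3 correlated at r = 0.99. Naive replicate 3 had the highest value of the 6 arrays for B cell and neutrophil genes, such as Cd79b (8.20, against 6.57 and 6.63 in the other naive arrays) and S100a9 (8.76, against 6.64 and 7.29). Results that rest on 1 array are given without it beside their values.

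T and NK cell genes were mostly higher after SNT. Of the 42 measured, 22 rose and 1 fell at a false discovery rate (FDR) of 0.1 in limma, 52.4% against the 17.3% of all clusters that rose. Across all clusters 32.1% changed and 14.8% fell. The median log2 change of the 42 genes was 0.36, against 0.09 for all clusters, and it lay between 0.23 and 0.40 in the alternatives tried. A rise of 2-fold or more was found for 5 of them (Gzmb, Cd8a, Cd8b, Klrk1 and Cd4), or 11.9%, against 1.85% of all clusters. The 3 SNT arrays lay above the 3 naive arrays for 25 genes (59.5%) and below them for 1, against 26.0% and 18.5% of all clusters. The number that rose was 12 without naive replicate 1 and 14 without naive replicate 2. Of the 13215 genes with 1 symbol, 2630 rose, 327 of them by 2-fold or more. The 42 genes were chosen with earlier results of these data known. Their shares therefore describe the list and are no test of it.

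Most of these genes were dim in naive ganglia. In 33 of the 42 the naive mean lay below that of the median cluster, and 18 of the 22 rises were among those 33. Among the 7387 clusters whose naive mean was no higher than the median of the 42 genes, 12.6% rose. This cut, at a naive mean of 5.36, lies below that of the median cluster, 6.14. The 12.6% is therefore not the share to set beside the 18 of 33. The 22 rises spanned 0.24 to 4.06 on the log2 scale, and 12 of them were under 0.5. The remaining 19 genes did not pass the threshold, 16 with a positive and 3 with a negative log2 change. Counts by role and by list below stand against 17.3% of all clusters that rose and 14.8% that fell. They cover few genes, and no role or list was tested as a set.

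**Figure D1:**
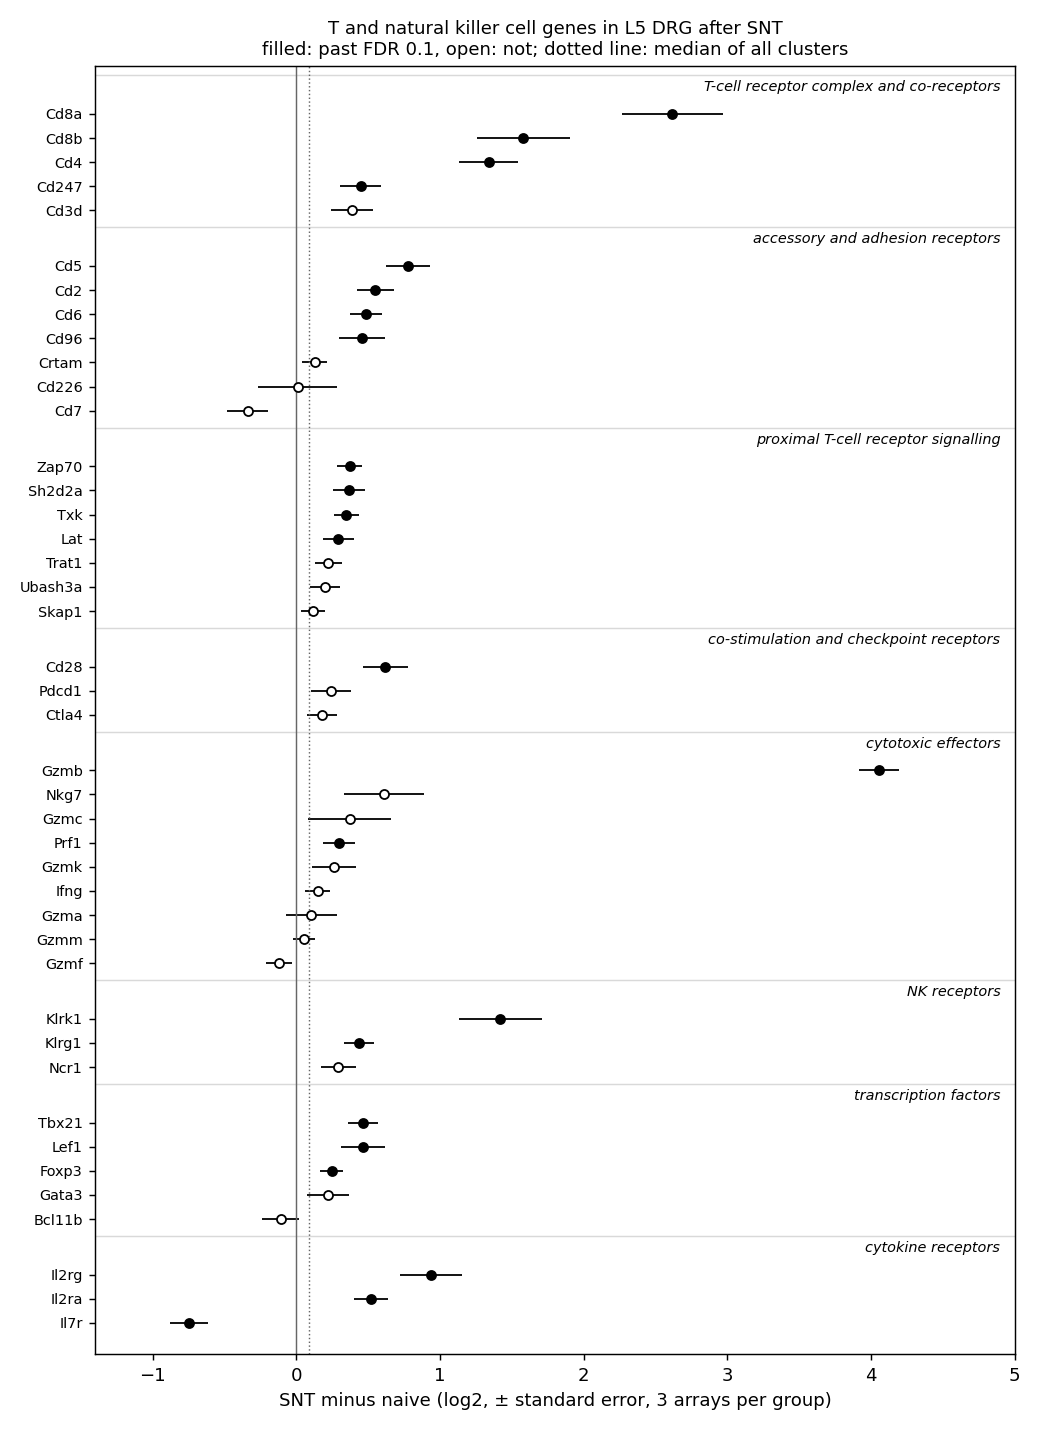
Log2 change (SNT minus naive, x axis) with its standard error for the 42 measured T and NK cell genes, grouped by role, 3 arrays per group. Filled points passed FDR 0.1, open points did not, and the dotted line marks the median of all clusters at 0.09. Gzmb stands apart at 4.06, followed by Cd8a at 2.62, and Il7r is the filled point below 0.

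Of the T-cell receptor complex and its co-receptors, 4 of 5 measured genes rose, led by both chains of CD8. Cd8a, the CD8 alpha chain, was 5.50, 5.48 and 5.46 in naive replicates 1 to 3 and 7.48, 8.97 and 7.84 in SNT replicates 1 to 3. The naive values were almost equal and every SNT array lay far above them, with SNT replicate 2 the highest. The change was 2.62 ± 0.35 (standard error, n = 3 per group), or 6.13-fold (adjusted p = 0.0061). In rats Cd8a is also made by NK cells and by some macrophages.

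Cd8b, the beta chain that pairs with it on T cells, was 4.77, 5.02 and 5.04 in naive and 6.16, 7.33 and 6.08 in SNT. It rose by 1.58 ± 0.32 on the log2 scale, 2.99-fold (adjusted p = 0.0169), and again SNT replicate 2 was the highest. Cd4, the co-receptor for class II, stood at 8.32, 8.21 and 8.62 in naive and at 9.30, 10.03 and 9.82 in SNT. It had the highest naive level of the 42 genes on this array scale, in the 81.8th percentile of clusters, and rose 2.53-fold (1.34 ± 0.20, adjusted p = 0.00775). Rat macrophages also make Cd4, and their markers rose in the same arrays, with values given below. How far macrophages account for Cd4 was not tested.

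The measured signalling chains of the receptor had smaller log2 changes. Cd3d, the CD3 delta chain and the only CD3 gene measured, was 4.91, 5.10 and 4.71 in naive and 5.14, 5.55 and 5.18 in SNT. The groups did not overlap, but the gap was narrow and the change of 0.39 ± 0.15 missed the threshold (adjusted p = 0.109). It passed in 4 of 13 alternative fits, such as those without SNT replicate 1 (0.0842), with array weights (0.0755) and without dim clusters (0.0902). In the other fits its adjusted p was higher, such as 0.238 without naive replicate 1, 0.286 without naive replicate 3 and 0.347 after quantile normalisation. Cd247, the zeta chain, which NK cells also use, was 5.50, 5.57 and 5.60 in naive and 5.80, 6.33 and 5.89 in SNT. It rose by 0.45 ± 0.14 (adjusted p = 0.0683), a call lost without naive replicate 1, 2 or 3 (adjusted p = 0.194, 0.159 and 0.143) and after quantile normalisation, cyclic loess or median centring (adjusted p = 0.231, 0.223 and 0.166).

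Within an array the change of Cd8a exceeded that of Cd3d by 2.23 ± 0.34, that of Cd4 by 1.28 ± 0.31 and that of Cd8b by 1.04 ± 0.16 on the log2 scale. In each of these 3 contrasts the SNT arrays lay above all naive arrays, at p = 0.1 in a two-sided exact permutation test. This is the smallest p that 3 against 3 arrays can give, and it stayed at 0.1 after Benjamini-Hochberg adjustment over the 8 pairs of genes compared. The pairs set Gzmb and Cd8a, the genes with the largest rises, against genes with smaller changes, so this p adds no support. Probes of different genes can compress changes to different degrees. In RNA-seq of the same pools, the paper lists a larger fold change for Cd8b than for Cd8a, the reverse of the order on the arrays. The cause of this difference between platforms was not tested.

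**Figure D2:**
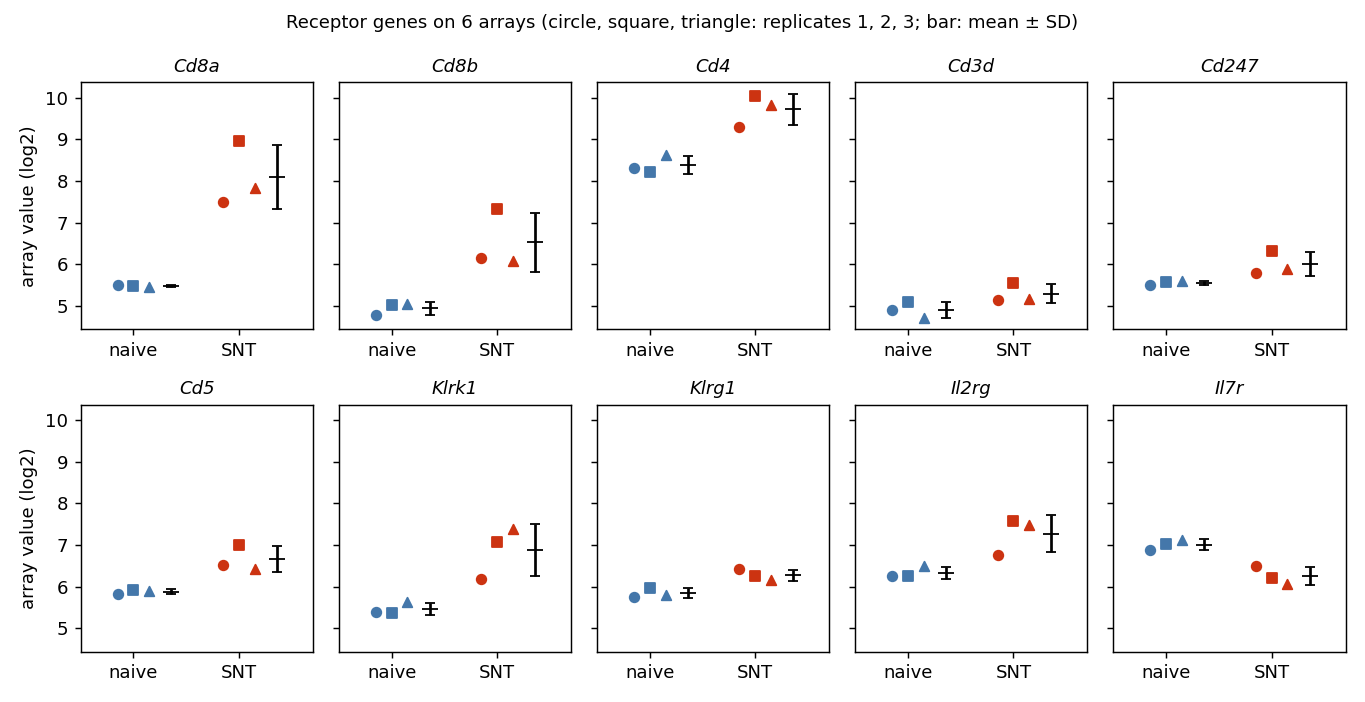
Log2 array values (y axis) of 10 receptor genes in 3 naive (blue) and 3 SNT (red) arrays, circles, squares and triangles for replicates 1, 2 and 3, with the mean ± SD beside each group. Cd8a rises from 5.46 to 5.50 in naive to 7.48 to 8.97 in SNT. Cd3d lies at 4.71 to 5.10 in naive and at 5.14 to 5.55 in SNT without passing FDR 0.1, and Il7r falls.

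Of 7 accessory and adhesion receptors, 4 rose. Cd5, an inhibitory scavenger-type receptor of T cells, was 5.81, 5.93 and 5.90 in naive and 6.52, 7.01 and 6.43 in SNT, a rise of 0.78 ± 0.15 (1.71-fold, adjusted p = 0.0155). Cd2, which binds CD48 in rodents, was 4.13, 4.17 and 4.11 in naive and 4.62, 4.95 and 4.48 in SNT, a rise of 0.55 ± 0.13 (adjusted p = 0.0249). For both genes SNT replicate 2 was highest and no array overlapped with the other group. Cd6, a receptor for the adhesion molecule ALCAM, rose by 0.48 ± 0.11 (adjusted p = 0.025). Cd96, a receptor for the nectin-like protein PVR, rose by 0.46 ± 0.16 (adjusted p = 0.0859). The call of Cd96 was lost without any 1 array other than SNT replicate 1 (adjusted p 0.237, 0.175 and 0.163 when naive replicate 1, 2 or 3 was left out, 0.11 and 0.115 when SNT replicate 2 or 3 was) and after quantile normalisation, cyclic loess or median centring (0.274, 0.258 and 0.195).

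The other 3 receptors did not pass. Cd226, an activating receptor that shares the ligand PVR with Cd96, ranged from 3.88 to 4.74 in naive and from 4.02 to 4.72 in SNT (0.01 ± 0.28, adjusted p = 0.986), so the groups overlapped entirely. Crtam, a receptor of activated cytotoxic cells that binds CADM1, changed by 0.13 ± 0.09 (adjusted p = 0.351). Cd7, a receptor of T and NK cells, was 7.51, 7.94 and 7.69 in naive and 7.53, 7.43 and 7.16 in SNT, where only SNT replicate 1 reached the naive range. It differed by -0.34 ± 0.14 (adjusted p = 0.137). It passed as a fall in 2 of 13 alternative fits, after median centring (adjusted p = 0.0505) and without SNT replicate 1 (adjusted p = 0.0923). In the others its adjusted p reached 0.342.

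Genes of proximal T-cell receptor signalling rose in 4 of 7 cases, all by small amounts of 0.29 to 0.37. Zap70, the kinase that docks on phosphorylated CD3 and zeta chains, was 5.56 to 5.62 in naive and 5.81 to 6.04 in SNT (0.37 ± 0.09, adjusted p = 0.0273, and 0.102 without naive replicate 2). Txk, a Tec family kinase, rose by 0.35 ± 0.09 (adjusted p = 0.0286), Sh2d2a, an adaptor of activated T cells, by 0.37 ± 0.11 (adjusted p = 0.0546) and Lat, the membrane scaffold phosphorylated by ZAP-70, by 0.29 ± 0.11 (adjusted p = 0.0992). In all 4 genes the SNT arrays lay above the naive arrays. Trat1 (0.22 ± 0.09), Ubash3a (0.20 ± 0.10) and Skap1 (0.12 ± 0.08) were positive without passing (adjusted p = 0.132, 0.217 and 0.345). Trat1 passed in 2 of 12 alternative fits, without SNT replicate 1 (0.0863) and with array weights (0.0795). In the others its adjusted p reached 0.493.

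Leaving out 1 array ended several of these calls. Txk lost its call without naive replicate 1 or 2 (adjusted p = 0.114 and 0.113) and after quantile normalisation, cyclic loess or median centring (0.194, 0.164 and 0.106). Sh2d2a lost it without naive replicate 1, 2 or 3 or SNT replicate 2 (0.141, 0.118, 0.169 and 0.118). Lat lost it without naive replicate 1 or 3 or SNT replicate 1 or 3 (0.298, 0.21, 0.163 and 0.193). It also lost it after the same 3 normalisations (0.193, 0.246 and 0.234), with an intensity trend (0.109) and with a replicate block (0.196). Of the 4 genes, Zap70 alone passed without naive replicate 1 and Lat alone without naive replicate 2.

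The wider signalling pathway was represented by 18 further measured genes, of which 7 rose and 2 fell, against 17.3% and 14.8% of all clusters. The 2 that fell were Rasgrp1, an activator of Ras that is also made by neurons (-0.67 ± 0.09, adjusted p = 0.00643), and Dgkz, a diacylglycerol kinase (-0.72 ± 0.14, adjusted p = 0.0152). Dgka, a related kinase of T cells, rose by 0.53 ± 0.08 (adjusted p = 0.00781), the exchange factor Vav1 by 1.20 ± 0.21 (adjusted p = 0.0108) and Csk, which holds LCK inactive, by 0.40 ± 0.08 (adjusted p = 0.0142). Vav1 is made throughout the blood lineage, macrophages included, and Csk in most cells. Plcg1, the phospholipase downstream of LAT, differed by 0.00 ± 0.08 (adjusted p = 0.974).

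Among co-stimulatory and checkpoint receptors 1 of 3 rose, against 17.3% of all clusters. Cd28, the main co-stimulatory receptor of T cells, was 4.30, 4.67 and 4.68 in naive and 5.17, 5.40 and 4.94 in SNT. It rose by 0.62 ± 0.16 (1.54-fold, adjusted p = 0.0316), and without naive replicate 1, the lowest array, its adjusted p was 0.102. The inhibitory receptors Ctla4 (0.18 ± 0.10, adjusted p = 0.259) and Pdcd1, which encodes PD-1 (0.24 ± 0.14, adjusted p = 0.255), overlapped between the groups.

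Ligands of these receptors and cytokines for T and NK cells, listed apart from the 42 genes, were measured for 21 genes, of which 10 rose and 2 fell. Pvr, the ligand of CD226 and CD96, was 7.33, 7.18 and 7.22 in naive and 8.76, 8.91 and 9.24 in SNT, a rise of 1.72 ± 0.13 (3.29-fold, adjusted p = 0.00235). Cd80, a ligand of CD28 and CTLA-4, rose by 1.35 ± 0.15 (adjusted p = 0.00454). The chemokines Cxcl16 and Cxcl9, whose receptors CXCR6 and CXCR3 sit on T and NK cells, rose by 1.27 ± 0.17 (adjusted p = 0.0061) and 2.21 ± 0.34 (adjusted p = 0.00775). Cadm1, the ligand of CRTAM and an adhesion molecule of neurons, fell by 0.99 on the log2 scale (-0.99 ± 0.20, adjusted p = 0.0155).

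Of 9 cytotoxic effectors 2 rose, a count near the share of all clusters that rose, 17.3%. Of these 2 genes, 1 rose by far more on these arrays than any other of the 42 genes. In RNA-seq of the same pools, the paper lists larger fold changes for Cd8b and Cd8a than for Gzmb. Gzmb, granzyme B, which cleaves caspases in target cells, was 4.45, 4.52 and 4.72 in naive and 8.61, 8.39 and 8.86 in SNT. The SNT arrays lay close together, the lowest of them 3.67 above the highest naive array. The rise of 4.06 ± 0.14, or 16.6-fold (adjusted p = 9.53e-05), carried the gene from the 23.7th to the 85.5th percentile of clusters. Its adjusted p stayed at or below 0.00194 in the 13 alternative fits.

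None of the other 5 granzymes passed the threshold. Gzmc, in the same granzyme cluster of rat chromosome 15 as Gzmb, was 3.97, 4.94 and 4.30 in naive and 5.21, 4.42 and 4.69 in SNT (0.37 ± 0.29, adjusted p = 0.391). Gzmf, from the same cluster, was 3.51 to 3.63 in naive and 3.30 to 3.56 in SNT (-0.12 ± 0.09, adjusted p = 0.386). Gzma, Gzmk and Gzmm, which lie elsewhere in the genome, changed by 0.10 ± 0.18, 0.26 ± 0.15 and 0.05 ± 0.08 (adjusted p = 0.7, 0.271 and 0.668). All 5 overlapped between groups. Gzma, Gzmc, Gzmf and Gzmk had naive means between the 4.74th and 20.8th percentile of clusters, so low that the filter on dim clusters left them out. With no detection limit set, a change in these 4 may lie below what the arrays can show. Gzmm stood higher, in the 45.98th percentile, and within an array the change of Gzmb exceeded that of Gzmm by 4.01 ± 0.20, with every SNT array above every naive array (two-sided exact permutation p = 0.1, the smallest possible, and 0.1 after adjustment over the 8 pairs). Here too Gzmb was set against a gene with a smaller change, so this p adds no support. RefSeq also lists the granzyme B-like genes Gzmbl1 and Gzmbl3 on the same chromosome, and whether the Gzmb probes tell them apart was not tested.

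Of 3 other effectors, Prf1 passed the threshold, and Nkg7 and Ifng did not. Prf1, perforin, was 5.69, 5.81 and 5.59 in naive and 5.87, 6.18 and 5.93 in SNT. Its groups did not overlap but lay close together, and its rise of 0.30 ± 0.11 only just passed (adjusted p = 0.0986). The call was lost without any 1 array other than SNT replicate 1 (adjusted p 0.239, 0.133 and 0.269 when naive replicate 1, 2 or 3 was left out, 0.204 and 0.129 when SNT replicate 2 or 3 was). It was also lost after quantile normalisation, cyclic loess or median centring (0.399, 0.391 and 0.307), with an intensity trend (0.115) and with a replicate block (0.113). Ifng, the interferon of T and NK cells, was 4.03, 3.86 and 3.96 in naive and 4.16, 4.13 and 3.99 in SNT (0.15 ± 0.09, adjusted p = 0.268). Nkg7, a membrane protein of cytotoxic granules, was 6.23, 6.30 and 6.79 in naive and 6.44, 7.41 and 7.30 in SNT (0.61 ± 0.28, adjusted p = 0.168). SNT replicate 1 fell inside the naive range, and the adjusted p was 0.0139 without it and 0.0441 with array weights, which gave it the lowest weight. Nkg7 passed in 3 of 13 alternative fits, and in the others its adjusted p reached 0.378.

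**Figure D3:**
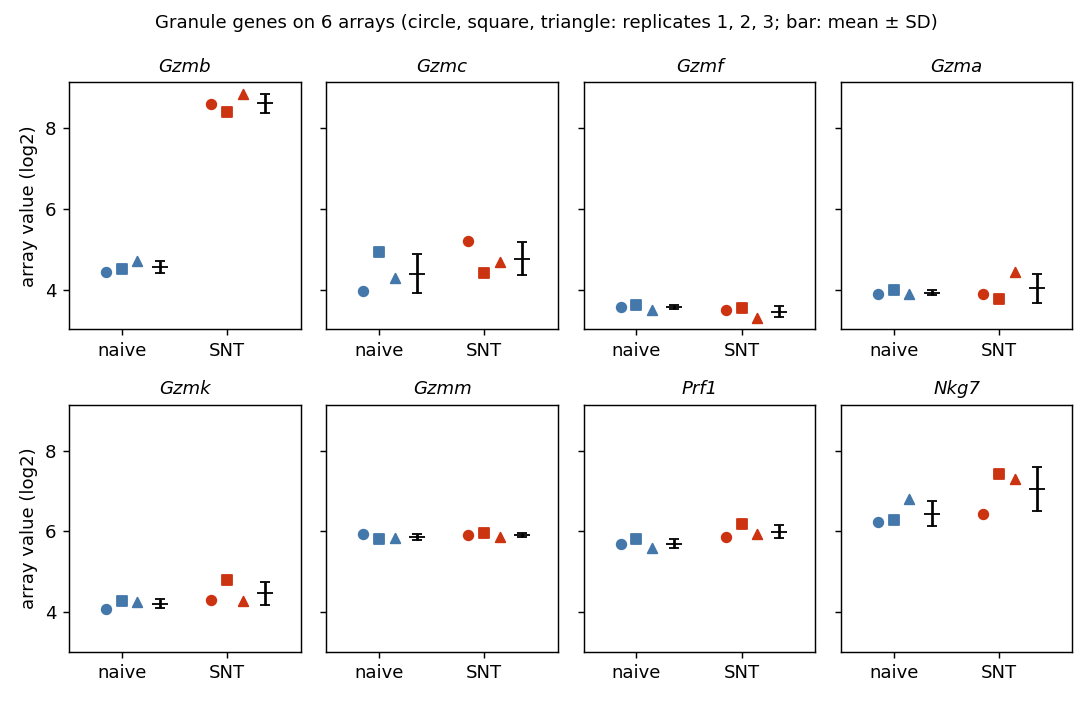
Log2 array values (y axis) of 6 granzymes, Prf1 and Nkg7 in 3 naive (blue) and 3 SNT (red) arrays, circles, squares and triangles for replicates 1, 2 and 3, with the mean ± SD beside each group. Gzmb moves from 4.45 to 4.72 up to 8.39 to 8.86, and the other granzymes overlap between the groups.

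The promoter windows of Gzmb, Gzmc and Gzmf are shown because these genes share a locus and only Gzmb passed the test, and that of Klrk1 because it had the largest rise among NK receptors. Each runs from 250 bases before to 50 bases after the RefSeq start of the gene in the GRCr8 assembly, 5′ to 3′ on the gene's strand, which is the minus strand for all 4. Positions are chr15:34462420-34462719 for Gzmb, chr15:34439957-34440256 for Gzmc, chr15:33988838-33989137 for Gzmf and chr4:164778333-164778632 for Klrk1. Capitals mark matches, on either strand, to 6 motifs: AP-1 (TGANTCA), RUNX (TGTGGT), ETS (AGGAAG), T-box (GGTGTGA), STAT (TTCNNNGAA) and the cyclic AMP element CRE (TGACGTCA). No match in these 4 windows overlapped with another.
Gzmb: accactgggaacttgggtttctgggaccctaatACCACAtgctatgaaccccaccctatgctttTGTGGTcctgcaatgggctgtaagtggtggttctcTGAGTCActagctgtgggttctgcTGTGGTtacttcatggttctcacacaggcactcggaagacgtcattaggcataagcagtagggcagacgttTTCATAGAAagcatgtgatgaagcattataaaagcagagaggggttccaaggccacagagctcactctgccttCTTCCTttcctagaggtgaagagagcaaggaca
Gzmc: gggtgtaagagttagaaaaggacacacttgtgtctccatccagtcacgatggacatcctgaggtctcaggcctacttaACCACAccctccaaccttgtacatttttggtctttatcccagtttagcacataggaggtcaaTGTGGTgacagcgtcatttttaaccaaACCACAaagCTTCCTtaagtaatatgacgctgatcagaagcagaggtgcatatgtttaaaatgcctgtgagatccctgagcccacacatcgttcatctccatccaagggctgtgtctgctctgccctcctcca
Gzmf: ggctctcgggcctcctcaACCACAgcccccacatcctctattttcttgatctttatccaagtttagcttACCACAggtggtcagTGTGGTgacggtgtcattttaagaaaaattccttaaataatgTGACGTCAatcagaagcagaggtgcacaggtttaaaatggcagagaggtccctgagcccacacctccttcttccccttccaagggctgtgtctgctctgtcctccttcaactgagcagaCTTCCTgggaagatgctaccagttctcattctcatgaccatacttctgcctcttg
Klrk1: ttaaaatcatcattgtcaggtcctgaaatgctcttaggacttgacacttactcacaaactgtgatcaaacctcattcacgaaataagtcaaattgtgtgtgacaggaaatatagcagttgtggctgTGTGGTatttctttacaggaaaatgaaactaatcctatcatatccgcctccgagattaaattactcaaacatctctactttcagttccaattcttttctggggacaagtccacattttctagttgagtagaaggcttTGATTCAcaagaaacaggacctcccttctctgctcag

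The windows of the 3 granzymes each held 3 RUNX matches and 1 ETS match. That of Gzmb also held 1 AP-1 and 1 STAT match, and that of Gzmf 1 CRE match. Klrk1 had 1 RUNX and 1 AP-1 match. The Gzmb window was identical to that of Gzmc in 49.6% of aligned columns and to that of Gzmf in 48.9%, against 52.8% between Gzmc and Gzmf. Pairs with granzymes outside the locus reached a similar level, such as 49.6% for Gzmb with Gzma and 51.2% for Gzmc with Gzmm. These percentages therefore say little about how related the windows are. The printed windows of Gzmc and Gzmf share identical runs of bases at shifted positions, which identity over the whole window does not bring out. RUNX and AP-1 factors are known to act at the granzyme B promoter of other mammals, but a match is only a run of letters, and the arrays measured no binding.

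Windows were found for 33 of the 42 genes, among them 18 of the 22 that rose. RUNX letters were present in 16 of the 33 (48.5%) and in 16.9% of the 27457 promoters in the table. They were no more frequent in windows of genes that rose (7 of 18) than in the others (9 of 15). AP-1 letters were in 3 of the 18 (Gzmb, Klrk1 and Lef1) and in 0 of the other 15, against 7.33% of all promoters. ETS letters were in 16 of the 33 and in 34.3% of all promoters. T-box, STAT and CRE letters were in 3, 4 and 2 of the 33 and in 3.81%, 8.68% and 1.91% of all promoters.

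NK receptors rose in 2 of 3 measured cases. Klrk1 encodes NKG2D, an activating receptor of NK and CD8 T cells for stress-induced ligands. It stood at 5.40, 5.38 and 5.63 in naive and at 6.19, 7.07 and 7.39 in SNT, with SNT replicate 1 nearest to naive. The rise was 1.42 ± 0.29, or 2.67-fold (adjusted p = 0.0165). Klrg1, an inhibitory receptor of mature NK and effector T cells, was 5.76 to 5.98 in naive and 6.16 to 6.42 in SNT (0.44 ± 0.10, adjusted p = 0.0261, and 0.107 without naive replicate 1).

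Ncr1, which encodes NKp46 and is the gene here that most closely marks NK cells, was 4.91, 5.03 and 5.08 in naive and 5.52, 5.27 and 5.09 in SNT. The lowest SNT array was close to the highest naive array. The change of 0.29 ± 0.12 missed the threshold (adjusted p = 0.137). It passed in 1 of 13 alternative fits, without SNT replicate 3 (adjusted p = 0.0639), and in the others the adjusted p reached 0.347.

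Among lymphocyte transcription factors 3 of 5 rose. Tbx21, T-bet, which drives type 1 T cells and NK cells, was 5.38, 5.45 and 5.56 in naive and 6.08, 5.94 and 5.77 in SNT (0.46 ± 0.10, adjusted p = 0.0217). Foxp3, the factor of regulatory T cells, was 4.74, 4.73 and 4.70 in naive and 5.06, 4.95 and 4.89 in SNT, a small rise of 0.24 ± 0.08 (adjusted p = 0.0662). The groups of both genes were separate and SNT replicate 1 was the highest array. Lef1, a Wnt pathway factor of T cells and also of vessels, rose by 0.46 ± 0.15 (adjusted p = 0.0716). Gata3, the factor of type 2 T cells, differed by 0.22 ± 0.15 (adjusted p = 0.316). It passed in 1 of 13 alternative fits, without SNT replicate 3 (0.0515), and in the others its adjusted p reached 0.653. Bcl11b, a factor of T cells and neurons, differed by -0.11 ± 0.13 (adjusted p = 0.563).

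The calls of Foxp3 and Lef1 were not stable. Foxp3 lost its call without naive replicate 1, 2 or 3 or SNT replicate 2 (adjusted p = 0.182, 0.166, 0.192 and 0.11) and after quantile normalisation, cyclic loess or median centring (0.335, 0.281 and 0.209). Lef1 lost it without naive replicate 1 or 2 or SNT replicate 2 or 3 (0.207, 0.2, 0.139 and 0.109) and after median centring (0.166). With a replicate block both genes lost their calls (0.16 for Foxp3 and 0.105 for Lef1). Tbx21 passed in all 13 alternative fits.

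All 3 cytokine receptor genes changed, in opposite directions. Il2rg, the common gamma chain used by the receptors for interleukins 2, 7 and 15, was 6.26, 6.25 and 6.51 in naive and 6.77, 7.58 and 7.47 in SNT. It rose by 0.94 ± 0.22 (1.91-fold, adjusted p = 0.024), least in SNT replicate 1, and most leukocytes make it. Il2ra, the alpha chain of activated and regulatory T cells, was 5.16, 4.89 and 5.31 in naive and 5.63, 5.59 and 5.70 in SNT (0.52 ± 0.12, adjusted p = 0.0233).

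Il7r, the interleukin 7 receptor that keeps naive and memory T cells alive, was the only one of the 42 genes to fall. It was 6.87, 7.03 and 7.12 in naive and 6.50, 6.21 and 6.06 in SNT, so that the groups were separate. The change was -0.75 ± 0.13, 1.68-fold lower (adjusted p = 0.011), and it passed in all 13 alternative fits. Its ligand Il7 also fell, by 0.49 on the log2 scale (-0.49 ± 0.16, adjusted p = 0.0739), but that call was lost without naive replicate 1, 2 or 3 (adjusted p = 0.121, 0.2 and 0.182) or SNT replicate 1 or 3 (0.12 and 0.137).

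Of 19 homing and activation genes of lymphocytes, again listed apart, 12 rose and 0 fell, with a median of 0.40. They included the adhesion molecule Cd44 (0.97 ± 0.11, adjusted p = 0.00479), the integrin chain Itgal of LFA-1 (1.52 ± 0.23, adjusted p = 0.00735), the chemokine Xcl1, made by activated NK and CD8 T cells (0.58 ± 0.09, adjusted p = 0.00914), and the interleukin 18 receptor Il18r1 (0.45 ± 0.08, adjusted p = 0.0108). Cd44 and Itgal are also made by myeloid cells. Without naive replicate 1 or 2 the rises numbered 6, and after quantile normalisation 7. Ccr7 and Klf2, genes of resting and recirculating lymphocytes, differed by 0.22 ± 0.19 and 0.06 ± 0.11 (adjusted p = 0.45 and 0.727).

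Markers of other immune cells moved unequally in the same arrays. All 14 measured macrophage markers rose (median 1.78), and their summed log2 level went from 98.95 to 104.9 in naive up to 120.2 to 133.6 in SNT. By comparison, the sum over the 42 T and NK cell genes went from 222.1 to 226.3 up to 243.02 to 251.3. C1qa (2.31 ± 0.19, adjusted p = 0.00243) and C1qb (2.46 ± 0.23, adjusted p = 0.00327) had the smallest adjusted p among the macrophage markers. General leukocyte genes rose in 10 of 12 cases (median 0.80), with the smallest adjusted p for Lcp1 (0.82 ± 0.10, adjusted p = 0.00549), with 5 and 6 rises without naive replicate 1 or 2. No marker of any list was at 0 on the log2 scale. With no detection limit set, this does not show that each was detected. The part of macrophages in the rises of genes that they share with lymphocytes was not tested.

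Of 6 B cell and plasma cell markers 0 rose and 0 fell (median -0.31, and -0.06 without naive replicate 3), and 1 of them had an unadjusted p under 0.05 in limma. Their summed level was 34.05 to 39.1 in naive, the highest value in naive replicate 3, and 33.4 to 34.4 in SNT. Of 8 neutrophil markers 1 rose, the receptor Csf3r (0.65 ± 0.10, adjusted p = 0.00775), and the list had a median of -0.33, or -0.10 without naive replicate 3. Its summed level was 46.4 to 55.7 in naive and 46.99 to 48.2 in SNT. Of 7 dendritic cell markers 5 rose and 1 fell, Flt3 (-0.94 ± 0.14, adjusted p = 0.00708), while Itgax, the CD11c chain, rose by 0.96 ± 0.14 (adjusted p = 0.00674). The rises in that list numbered 3 without naive replicate 1 or 3 and 2 after quantile normalisation. Of 6 mast cell markers 1 rose, Hdc, which makes histamine, and 1 fell, the growth factor receptor Kit (adjusted p = 0.0396, and 0.126, 0.109 and 0.105 without naive replicate 1, 2 or 3). A single gene of these lists need not speak for its cell type. The part of other cells of the ganglion, macrophages and neurons included, in the changes of Csf3r, Flt3, Itgax, Hdc and Kit was not tested.

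The SNT arrays did not rank alike across roles. Over the receptor complex and co-receptors arrays stood above the naive mean by a median of 0.92, 1.65 and 1.14 in SNT replicates 1 to 3. This is the same order as for macrophage markers (1.27, 2.26 and 1.78). In SNT replicates 1 and 2 that median was the value of Cd4, which macrophages also make, and in SNT replicate 3 that of Cd8b. Cd3d stood above its naive mean by 0.24, 0.65 and 0.27, and Cd247 by 0.24, 0.77 and 0.33. Over proximal signalling genes the median was 0.34, 0.19 and 0.22, with SNT replicate 1 the highest. SNT replicate 1 was also the highest over all clusters (0.11, 0.06 and 0.05). Median values of whole arrays were 6.31, 6.21 and 6.18 in SNT replicates 1 to 3, and 6.11 to 6.16 in naive. The part of this offset in the order of the arrays was not tested. Over all 42 genes the 3 values were 0.34, 0.42 and 0.30, closer to each other than those of macrophage markers. Of the 23 genes that changed, SNT replicate 2 was the highest SNT array in 13, SNT replicate 1 in 6 and SNT replicate 3 in 4.

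**Figure D4:**
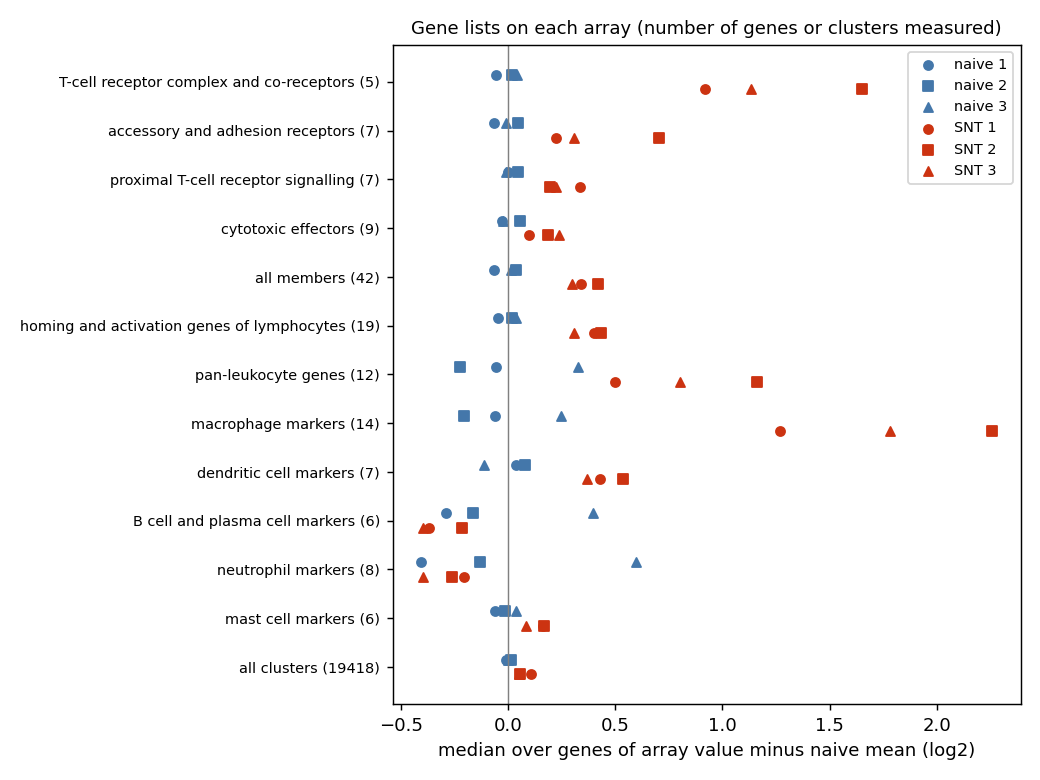
Median over the genes of a list of the array value minus the naive mean (x axis, log2) for each of 3 naive (blue) and 3 SNT (red) arrays, with the number of genes or clusters measured in brackets. All SNT points lie above the naive points for macrophage markers, T-cell receptor genes and the 42 T and NK cell genes together, whereas B cell and neutrophil markers show no such shift and naive replicate 3 is their highest array.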

How the data were processed

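Affymetrix Rat Exon 1.0 ST arrays measured L5 DRG RNA of 3 SNT and 3 naive pools of 4 rats. The values, log2 per transcript cluster as deposited, were made by the authors in R with oligo by robust multi-array average (background correction, quantile normalisation, median polish). The methods describe tables at several probeset confidence levels, and which of them the deposited table holds was not stated. Versions were not given in the sources used here. Scanner files were not used, so no detection limit was set, and low values may hold nonspecific signal. Arrays have no read depth, and their number limits precision.

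Symbols came from the platform annotation: of 19418 clusters 13327 had 1 symbol, 620 several and 5471 none. The cluster with the highest mean stood for a gene. SNT was compared with naive by limma 3.58.1 in R 4.3.3 (lmFit, eBayes, 2.81 prior degrees of freedom), as a two-sided test. P-values were adjusted by Benjamini-Hochberg across the whole table at FDR 0.1, as in the methods of the study. The fit was also run on simulated data with 200 changed clusters. That is far below the 32.1% of clusters called here, so the simulation is no check of these calls. Fold changes are SNT minus naive ± standard error on the log2 scale. Single contrasts of gene pairs used an exact permutation test over arrays. They set Gzmb and Cd8a, the genes with the largest rises, against genes with smaller changes. Lists were described by counts and medians only. Members and lists were chosen with earlier results of these data known. Values of each array were given for genes past FDR 0.1 with a log2 change of 0.5 or more and for a fixed set of lineage genes. They were also given for Tbx21, Cd7, Gzmc and Nkg7, which this rule does not cover. Of other lists up to 4 genes with the smallest adjusted p and up to 2 that went against their list were named, with a few further genes chosen after their values were seen (Plcg1, Ccr7, Klf2, Cd79b, S100a9 and neuronal genes). Promoter windows came from RefSeq (GRCr8). The pools were separate animals, so replicate numbers do not pair arrays, and p-values measure the spread between pools. RNA-seq of these ganglia was not analysed here. Alternatives were quantile normalisation, cyclic loess, median centring, a filter on clusters under the 25th percentile of mean level, an intensity trend, array weights, the most variable cluster per gene, a replicate block and leaving out each array.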

Additional observations from a re-analysis of the deposited data

How the results depend on the processing

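With 3 arrays per group, leaving out 1 array moved the number of T and NK cell genes that rose between 12 and 24 and the number that fell between 1 and 2. Over all clusters rises then ranged from 1643 to 3851 and falls from 1856 to 3226. Median centring gave 15 rises and 2 falls among the 42 genes, the second fall being Cd7, and 1869 rises over all clusters. Quantile normalisation and cyclic loess each gave 16 rises, the intensity trend 20, array weights 25 and the filter on dim clusters 21 of the 33 genes it left. The most variable cluster per gene gave the same 22. Of the 23 genes called, 12 were called in every alternative in which they were fitted (Cd2, 1 of the 12, was left out by the filter on dim clusters), and no called gene changed direction. The replicate numbers did not pair the arrays: deviations of same-numbered arrays correlated at -0.07, -0.15 and 0.05, and no array correlated best with its own number. The replicate block gave 20 rises and 1 fall among the 42 genes, and 2380 rises and 2320 falls over all clusters. Most of the genes lie among dim clusters, where nonspecific signal may compress changes, and the cause of lost calls was not tested.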
